A study of Sus scrofa with 10 samples.

Results

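The genes of de novo fatty acid synthesis and of the enzymes that supply it with NADPH were described in the liver of 10 pigs. The set comprised 9 genes, *ACLY*, *ACACA*, *FASN*, *ELOVL6*, *SCD*, *ME1*, *ME3*, *PGD* and the regulator *SREBF1*. A probe set, a group of short oligonucleotide probes read as a single transcript, was taken for a gene if the platform annotation gave it that symbol and no other, and 8 of the 9 genes had at least 1. These 8 genes had 16 probe sets, out of 10069 probe sets with a single symbol that stood for 6765 genes. The value of a gene was the mean of its probe sets with a mean log2 intensity of at least 4 over the 10 arrays. By this rule 4 of the 9 genes were measured (*FASN*, *SCD*, *ELOVL6* and *PGD*), against 4730 of the 6765 named genes, 4 were dim (*ACACA*, *ME1*, *ME3* and *SREBF1*), and *ACLY* had no probe set with its symbol.

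All animals were females of a backcross in which F1 boars of Iberian and Landrace origin were mated to Landrace sows, kept under 1 management and on 1 type of diet. The 5 H and 5 L animals were chosen from opposite extremes of a principal component of carcass and fatty acid traits of a back muscle, where H animals were richer in polyunsaturated and L animals in saturated and monounsaturated fatty acids. No animal was treated, and each gave 1 array, so the animal is the replicate. Full-sibs and maternal half-sibs were kept between the groups, but the pairs are not given in the sources used here, so kinship was not modelled. Per the study's methods the animals of the cross were slaughtered at a closely similar age, and no age per animal is given in the labels.

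De novo lipogenesis turns citrate exported from mitochondria into fatty acids. ATP citrate lyase (*ACLY*) releases cytosolic acetyl-CoA, acetyl-CoA carboxylase (*ACACA*) makes malonyl-CoA, and fatty acid synthase (*FASN*) builds palmitate with electrons from NADPH. *ELOVL6* lengthens palmitate to stearate and *SCD* introduces the double bond that gives palmitoleate and oleate, the monounsaturated acids. NADPH comes from the malic enzymes (*ME1* in the cytosol, *ME3* in mitochondria) and from the pentose phosphate pathway, of which 6-phosphogluconate dehydrogenase (*PGD*) is a step. *SREBF1* encodes the transcription factor that raises many of these genes after feeding. In the pig, adipose tissue rather than liver is the main site of this synthesis.

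The tissue label was checked against marker genes. All 10 hepatocyte markers with a probe set, out of 12 listed, were measured, and *ALB*, the gene of serum albumin, had a mean log2 intensity of 15.53 in H and 15.60 in L. Of 13 adipocyte markers 1 was measured, *PCK1*, which hepatocytes express too, while the defining markers *ADIPOQ*, *LEP*, *FABP4*, *LPL* and *LIPE* were dim. The sum of the hepatocyte markers, on the linear scale, ran from 303833 to 339870 in H and from 320886 to 344698 in L (exact permutation test of its log2, two-sided, p = 0.2857). In whole tissue, fewer cells of a type and less RNA per cell cannot be told apart. The difference between the 3' and 5' control probe sets of *GAPDH*, a sign of RNA quality, averaged 1.96 with an SD of 0.28 for the 5 H arrays and 1.99 with an SD of 0.42 for the 5 L arrays (exact permutation p = 0.8968), and its correlations with the 4 measured genes lay between -0.19 and -0.06.

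*ACACA*, the carboxylase, and *SREBF1*, the regulator, gave no signal well above background on these arrays. Background adjustment leaves probe sets without signal at a lowest value of 2.19, and 39.5% of all porcine probe sets lay within 0.5 of it on all 10 arrays. Among the probe sets with a single symbol 29.7% did so, as did 7 of the 16 probe sets of the set. Both probe sets of *ACACA* stayed between 2.19 and 2.20 in every animal, and the single probe set of *SREBF1* stayed between 2.19 and 2.28. These probe sets were not well above background, so their values do not show how much transcript was present. For *FASN*, 3 of 4 probe sets stayed between 2.19 and 2.46 in animals where the other read 4.84 to 6.88.

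The malic enzymes were dim, with values that were not well above background except for *ME3* in L4. The brighter of the 2 probe sets of *ME1* read 3.08, 2.89, 3.07, 2.91 and 3.37 in H1 to H5 and 3.08, 3.12, 3.53, 2.63 and 3.05 in L1 to L5. The groups overlapped over nearly their whole range, and the difference, H minus L, was -0.02. The other probe set of *ME1* lay between 2.29 and 2.65 in all animals.

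*ME3*, the mitochondrial enzyme, read 2.80, 3.12, 2.80, 2.45 and 2.80 in H1 to H5 and 2.41, 2.80, 2.80, 5.66 and 3.41 in L1 to L5. A single animal, L4, stood high, and the other 9 lay between 2.41 and 3.41. H1, H3, H5, L2 and L3 had the same value, 2.80, and H4 and L1 were lower. The difference between the group means, -0.62, became -0.06 without L4. No test of it is reported because the mean over the arrays was under 4.

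**Figure D1:**
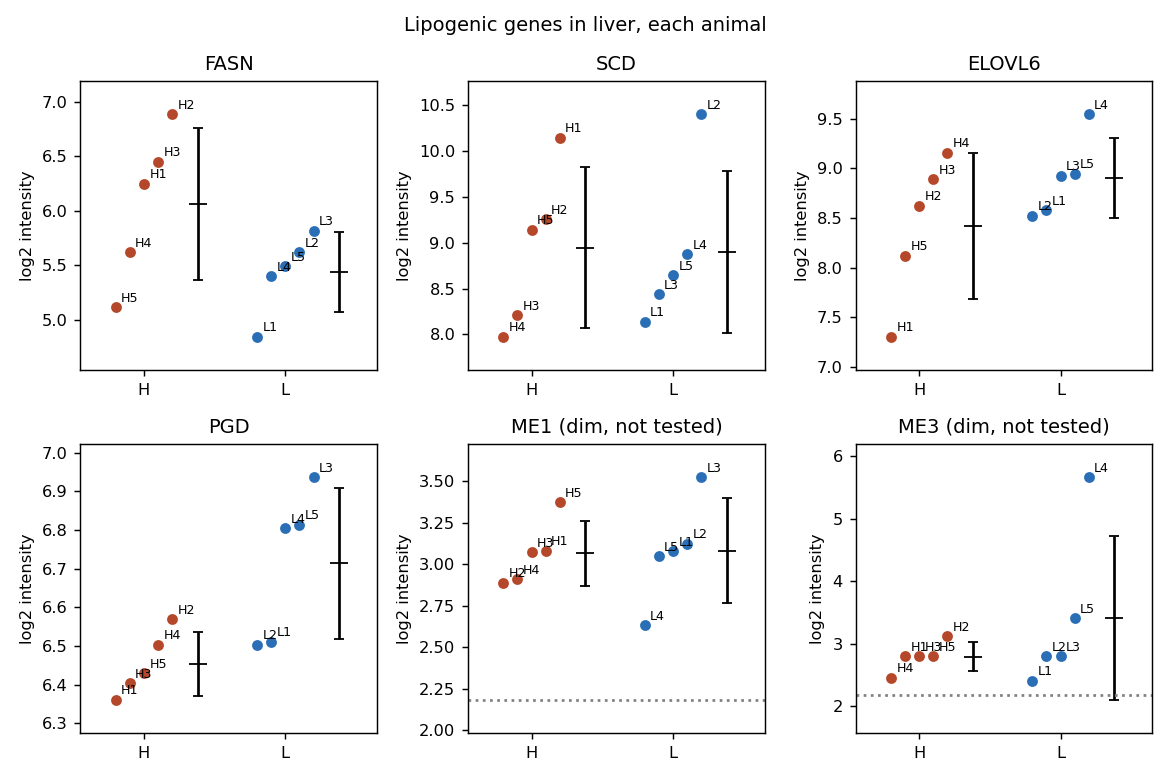
Log2 intensity of the 4 measured genes and of the brighter or single probe set of the dim genes ME1 and ME3 in each of the 5 H and 5 L animals, with the mean and SD of the group as a bar to the right; the dotted line is the lowest array value, 2.19. H and L overlap in every panel, FASN has 3 H animals above all L animals, PGD has 3 L animals above all H animals, and ME3 has 1 animal, L4, at 5.66. Axes differ between panels.

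*FASN*, the synthase itself, was read by 1 of its 4 probe sets, Ssc.18175.1.A1_at, while the other 3 stayed between 2.19 and 2.46 in all animals. The log2 intensity was 6.25, 6.88, 6.45, 5.62 and 5.11 in H1 to H5. It was 4.84, 5.62, 5.82, 5.40 and 5.49 in L1 to L5. The 3 highest animals, H2, H3 and H1, were all H, but H5 and H4 lay among the L animals, so the groups overlapped. H animals averaged 6.06 ± 0.70 and L animals 5.43 ± 0.37 (SD, n = 5 per group), a difference of 0.63 with a standard error of 0.32 and a 95% interval of -0.07 to 1.33. It did not pass the test (limma adjusted p = 0.985, over 4730 genes, exact permutation p = 0.1111).

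*SCD*, the desaturase, read 10.15, 9.26, 8.21, 7.97 and 9.14 in H1 to H5 and 8.14, 10.40, 8.44, 8.87 and 8.65 in L1 to L5. Each group held 1 animal above 10, H1 and L2, and the lowest values, in H4 and L1, also came from both groups. H animals averaged 8.95 ± 0.88 and L animals 8.90 ± 0.88 (SD, n = 5 per group), and the difference of 0.05 (standard error 0.49, 95% interval -1.05 to 1.14) was far smaller than the spread within each group (limma adjusted p = 0.997). Its sign turned in 6 of the 10 fits that left out 1 animal, and the value ran from -0.25 without H1 to 0.42 without L2. The interval does not show that the groups have the same level, since it spans more than a doubling in either direction.

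*ELOVL6*, the elongase, had 4 probe sets, all above the limit. Their mean was 7.30, 8.62, 8.89, 9.15 and 8.12 in H1 to H5 and 8.58, 8.52, 8.92, 9.54 and 8.94 in L1 to L5. The 2 lowest animals, H1 and H5, were H and the highest, L4, was L, with the other 7 intermixed. H animals averaged 8.42 ± 0.73 and L animals 8.90 ± 0.41 (SD, n = 5 per group), and H minus L was -0.49 (standard error 0.33, 95% interval -1.23 to 0.26). This did not pass the test (limma adjusted p = 0.985, exact permutation p = 0.254), and without H1 the difference was -0.21.

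The 4 probe sets of *ELOVL6* all had a lower mean in H, with differences of -0.38 for Ssc.1008.1.A1_at and of -0.55, -0.66 and -0.35 for the 3 whose names begin with Ssc.9392 (limma adjusted p = 0.991 for each, over 11756 probe sets, of which 0% passed and 3.09% had an unadjusted p under 0.05). They did not order the animals alike. Ssc.1008.1.A1_at read 11.56, 11.71, 12.28, 13.09 and 11.05 in H1 to H5 and 12.36, 11.50, 12.39, 12.90 and 12.44 in L1 to L5, so that its lowest animal was H5 and its highest was H4. The lowest animal of each of the other 3 was H1, at 4.97, 6.04 and 6.64, and their highest was L4, at 7.40, 9.32 and 8.56.

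Over the 10 animals the 3 similar probe sets correlated with each other at r = 0.917 to 0.970 and rho = 0.811 to 0.924 (permutation p adjusted over the 6 pairs of at most 0.0004 for r and 0.0113 for rho). Ssc.1008.1.A1_at correlated with them at r = 0.539, 0.625 and 0.712 (permutation p = 0.0988, 0.0445 and 0.0180; adjusted over the 6 pairs, 0.0988, 0.0534 and 0.0270) and at rho = 0.742, 0.794 and 0.778 (permutation p = 0.0175, 0.00963 and 0.0106; adjusted 0.0175, 0.0127 and 0.0127). Without its 2 animals farthest from the median, H5 and L2, these r were 0.684, 0.756 and 0.756. H1 was below the mean on every probe set, but by different amounts.

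**Figure D2:**
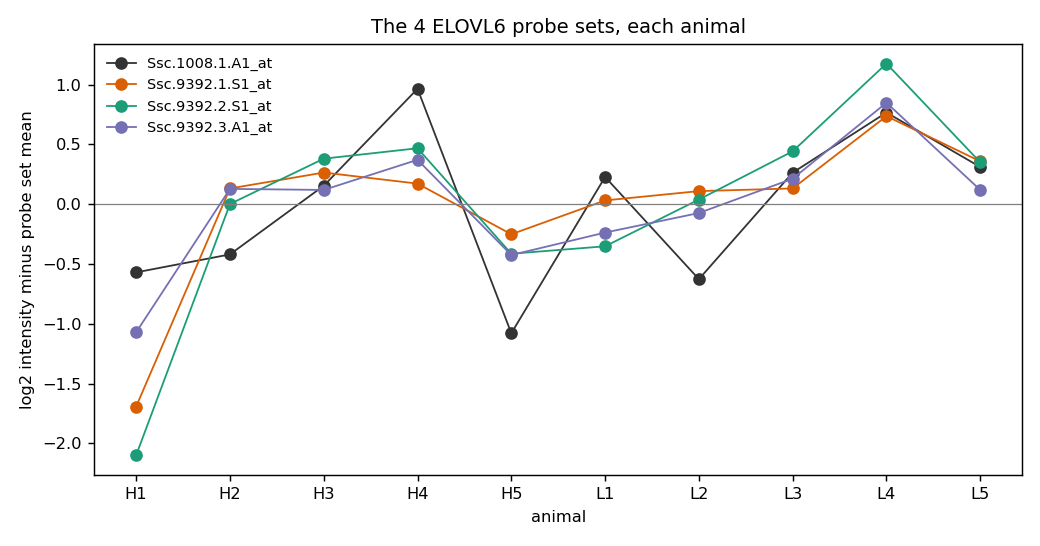
Log2 intensity of each of the 4 ELOVL6 probe sets in the 10 animals, minus that probe set's mean; the lines only join the points of a probe set, since the animals have no order. The 3 Ssc.9392 probe sets move together (r of 0.917 to 0.970) and are lowest in H1, while Ssc.1008.1.A1_at is lowest in H5 and highest in H4.

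*PGD*, the pentose phosphate enzyme, read 6.36, 6.57, 6.40, 6.50 and 6.43 in H1 to H5 and 6.51, 6.50, 6.94, 6.80 and 6.81 in L1 to L5. The 3 highest animals, L3, L5 and L4, were all L and the 3 lowest, H1, H3 and H5, all H, with H2, H4, L1 and L2 close together between them. H animals averaged 6.45 ± 0.08 and L animals 6.71 ± 0.20 (SD, n = 5 per group), and H minus L was -0.26 (standard error 0.10, 95% interval -0.48 to -0.04). The exact permutation test of this gene alone gave p = 0.0397 (two-sided), but limma's p of 0.0266 became an adjusted p of 0.985 over the 4730 genes. Leaving out H1, H3, L3, L4 or L5 took the unadjusted p past 0.05, with differences that ran from -0.31 without L2 to -0.20 without L3 over the 10 animals left out in turn. Markers of blood cells moved with *PGD* before adjustment. Of 7 erythroid markers 1 was measured, *HBB*, with an intensity of 388 to 719 in H and 412 to 566 in L, and it had r = -0.665 and rho = -0.754 with *PGD* (permutation p = 0.0428 and 0.0148, adjusted over 36 relations p = 0.588 and 0.532), and r = -0.644 without L3 and L5. Of 10 T and B cell markers 2 were measured, *CD8A* and *JCHAIN*, while *CD3E* and the others were dim or had no probe set, and their sum, 673 to 1288 in H and 583 to 2693 in L, had r = 0.628 and rho = 0.511 (permutation p = 0.04995 and 0.135, adjusted p = 0.588 and 0.951), and r = 0.281 without L3 and L5. Their part in the difference of *PGD* was not tested.

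No measured gene of the set therefore passed the adjusted test, in a comparison where 0% of the 4730 genes did. At an unadjusted p under 0.05 in limma, 125 of the 4730 genes passed, or 2.64%, of which 1.84% of all genes were lower in H and 0.803% higher. Of the 4 measured genes of the set 1 did, *PGD*, lower in H. The directions were mixed, with *FASN* and *SCD* above 0 and *ELOVL6* and *PGD* below it, beside a median of -0.04 over all genes.

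The genes differed more in how much they varied between animals. The SD over the 10 animals was 0.83 for *SCD*, 0.62 for *FASN*, 0.61 for *ELOVL6* and 0.20 for *PGD*, beside a median of 0.22 over the 4730 genes. *SCD* exceeded 97.7% of all genes in SD, *FASN* 95.2%, *ELOVL6* 95.1% and *PGD* 40.5%. Among the 200 genes with the nearest mean, the shares were 99.0%, 92.0%, 93.0% and 30.5% in the same order. Between the lowest and the highest animal *SCD* spanned 5.39-fold, *ELOVL6* 4.72-fold, *FASN* 4.12-fold and *PGD* 1.49-fold.

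For *SCD*, *FASN* and *ELOVL6* most of this spread lay within the groups. The SD within groups was 0.88 for *SCD*, 0.56 for *FASN*, 0.59 for *ELOVL6* and 0.15 for *PGD*, whose SD over the 10 animals was 0.20. For *ELOVL6* it rested in part on 1 animal, since the SD over the animals fell to 0.41 without H1. That of *SCD* was at least 0.69 whichever animal was left out.

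**Figure D3:**
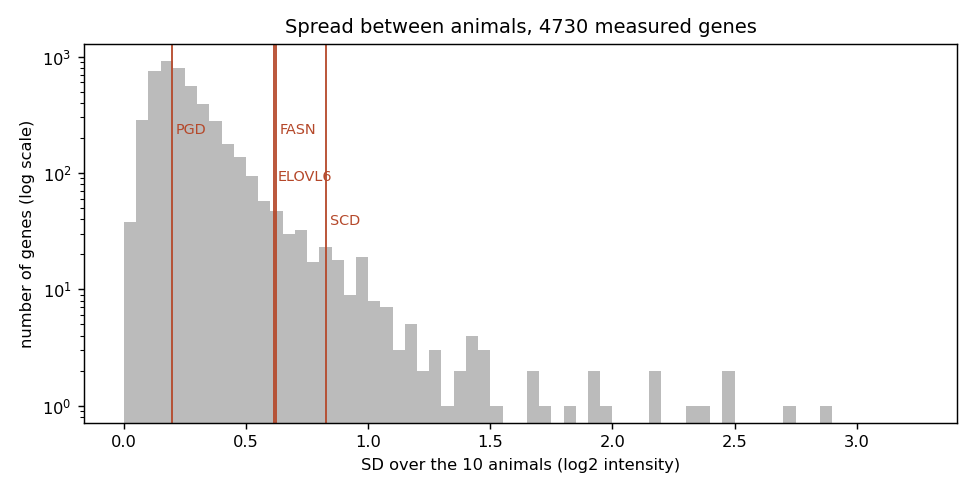
Number of genes (log scale) by their SD over the 10 animals in log2 intensity, for the 4730 measured genes, with the 4 measured genes of the set as vertical lines. SCD (0.83), FASN (0.62) and ELOVL6 (0.61) lie in the upper tail and PGD (0.20) lies close to the median of 0.22.

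The r of the 6 pairs of measured genes over the animals ran from -0.615 to 0.620, and no pair passed the adjusted test in either direction. None of the 6 pairs had r of at least 0.8, a value that 0.764% of all gene pairs reached, so a count of 0 is near the background. *FASN* and *SCD*, the first and last enzymes of the route to monounsaturated acids that were measured, had r = 0.226 (permutation p = 0.528, adjusted p = 1.0) and rho = 0.231 (p = 0.519, adjusted p = 1.0), and r = 0.471 without H2 and H3, the 2 animals farthest from the median of *FASN*. Each p came from a permutation test with 100000 resamples, two-sided, and was adjusted over the 4729 other genes.

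*SCD* and *ELOVL6*, which follow each other in the pathway, had r = -0.615 (permutation p = 0.0567, adjusted p = 0.649) and rho = -0.564 (p = 0.0943, adjusted p = 0.783). Of all pairs of genes 4.42% had r of -0.6 or below. H1 and L2 had the highest *SCD* and were among the 3 lowest animals for *ELOVL6*, while H4, with the lowest *SCD*, had the second highest *ELOVL6*. Without H1 and L2, r was -0.318. It was -0.394 without H1 alone and -0.728 without L2 alone, so the relation with the mean of the 4 probe sets rests in part on H1. With each group centred on its mean r was -0.663. By probe set, r with *SCD* was -0.712 for Ssc.1008.1.A1_at (permutation p = 0.0207, rho = -0.697) and between -0.527 and -0.500 for the other 3. On Ssc.1008.1.A1_at, H5 and L2 read lower than H1.

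*ELOVL6* and *PGD* had r = 0.620 (permutation p = 0.0524, adjusted p = 0.409) and rho = 0.626 (p = 0.0575, adjusted p = 0.395), and at r = 0.413 without H1 and L4. Of all gene pairs 6.02% had r of at least 0.6. *PGD* had weaker relations to *FASN* (r = -0.165, rho = -0.183, permutation p = 0.645 and 0.610, adjusted p = 1.0 for both) and to *SCD* (r = -0.281, rho = -0.195, permutation p = 0.433 and 0.587, adjusted p = 0.858 and 0.956). Both signs turned without the 2 animals farthest from the median, to 0.009 and 0.118. *FASN* and *ELOVL6* had r = -0.160 and rho = -0.067 (permutation p = 0.662 and 0.859, adjusted p = 1.0 for both), and r = -0.346 without H2 and H3.

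Each measured gene was then set against all others to find the genes with the most similar pattern over the 10 animals. With none of the 4 did any gene pass an adjusted permutation p of 0.05 (0% of 4729 for each), by r or by rho. At an unadjusted p under 0.05, 2.18% of genes passed with *FASN*, 7.49% with *SCD*, 12.2% with *ELOVL6* and 14.1% with *PGD*. The genes named next are therefore the top of a ranking and not calls.

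The 5 genes nearest to *SCD* were *NDUFB11*, *NDUFA4*, *NDUFV1*, *CYB5A* and *TSKU*, at r = 0.904, 0.893, 0.859, 0.858 and 0.857. The first 3 encode components of the mitochondrial respiratory chain, and *CYB5A* encodes cytochrome b5, which passes electrons to the desaturase. For *NDUFB11* rho was 0.964 and r was 0.888 without H1 and L2 (permutation p = 0.00020 for r and 7e-05 for rho, adjusted p = 0.566 and 0.331). For *CYB5A* rho was 0.830 and r was 0.697 without the same animals (permutation p = 0.00137 and 0.00461, adjusted p = 0.566 and 0.712).

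Those nearest to *ELOVL6* were *EFL1*, *SLC35B3*, *EXOSC5*, *CYB5R1* and *ADPGK*, at r = 0.970, 0.950, 0.923, 0.916 and 0.908. *EFL1* and *EXOSC5* act in ribosome maturation and RNA processing. For *EFL1* rho was 0.961 and r was 0.933 without H1 and L4 (permutation p = 2e-05 and 3e-05, adjusted p = 0.0709 and 0.0946), close to the smallest p that the resamples can give, 1e-05. For *PGD* they were *CAP1*, *DLG5*, *SNRPC*, *CAPZB* and *CYP2C33*, at r = 0.972, 0.928, 0.923, 0.920 and 0.916. *CAP1* and *CAPZB* encode proteins that bind actin, and for *CAP1* rho was 0.894 and r was 0.933 without L3 and L5 (permutation p = 0.00013 and 0.00099, adjusted p = 0.123 and 0.260).

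For *FASN* the ranking was lower, with *LOC100512700*, *SNX1*, *ARNTL*, *SMAP1* and *KLF10* at r = 0.825, 0.821, 0.802, 0.788 and 0.754 (adjusted permutation p = 1.0 for each). *ARNTL* is a core gene of the circadian clock. Its rho with *FASN* was 0.784 and its r was 0.640 without H2 and H3 (permutation p = 0.00485 and 0.00952, adjusted p = 1.0 for both). Without these animals the r of *SMAP1* and *KLF10* was 0.353 and 0.275.

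The other genes of the pathway were taken from lists. Of 17 further genes of fatty acid synthesis and citrate export 9 were measured, of which 2 had a difference above 0 and 7 below it, with a median of -0.05. None passed the test, adjusted or not. The genes with the smallest p were *MID1IP1*, whose product helps to assemble acetyl-CoA carboxylase, at -0.28 (limma adjusted p = 0.985), *PC*, pyruvate carboxylase, at -0.18, and *MECR*, of mitochondrial fatty acid synthesis, at 0.09. With *SCD* the r of the 9 genes ran from -0.49 to 0.66, with 7 of 9 above 0, beside 41.1% of all genes. With *ELOVL6* it ran from -0.65 to 0.68, with 5 of 9 above 0, beside 63.4% of all genes.

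Of 16 further genes of NADPH supply 9 were measured, 3 above and 6 below 0 with a median of -0.05, and none passed the test, adjusted or not. *ME2*, the third malic enzyme, had -0.23, *TKT*, transketolase, had -0.08 and *NNT*, the mitochondrial transhydrogenase, had 0.20. The highest r with *FASN* in this list belonged to *TALDO1*, transaldolase of the pentose phosphate pathway, at 0.701 (permutation p = 0.0235, adjusted p = 1.0) with rho = 0.754 (p = 0.0148, adjusted p = 1.0). It was 0.437 without H2 and H3, 0.459 without H2 alone and 0.740 without H3 alone, so that relation rests on H2.

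Of 27 regulators of lipogenesis 9 were measured, 5 above and 4 below 0, with a median of 0.00. *NR1H3*, the liver X receptor alpha that activates *SREBF1*, had the smallest p in the list, with a difference of -0.24 (limma adjusted p = 0.985). It ran with *PGD* over the animals, at r = 0.812 and rho = 0.796 (permutation p = 0.0042 and 0.0078, adjusted p = 0.187 and 0.268) and at r = 0.774 without L3 and L5. *SCAP*, which escorts the SREBP proteins, had -0.12 and *AKT2*, a kinase of insulin signalling, had -0.06.

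In the lists next to the pathway no gene passed the test of H against L, adjusted or not. Of 16 genes of elongation and desaturation 4 were measured, with a median of -0.17, and *FADS1*, the delta-5 desaturase, had the lowest value, -0.45, with *HACD3* at 0.22 and *HSD17B12* at -0.11. Of 20 genes of triacylglycerol synthesis 13 were measured, 4 above and 9 below 0, with a median of -0.20, among them *DGAT1*, which makes triacylglycerol, at -0.33, *AGPAT2* at -0.22 and *ACSL1* at -0.10. Of 23 genes of cholesterol synthesis and uptake 10 were measured, 8 above and 2 below 0, with a median of 0.11, among them *HSD17B7* at 0.27, *ACAT2* at 0.23 and *NSDHL* at -0.14.

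Of 19 genes of the fasting response 13 were measured, 9 above and 4 below 0, with a median of 0.04. *SDS*, serine dehydratase, had the largest difference of any listed gene, 1.44, with means of 7.85 ± 2.41 in H and 6.41 ± 2.21 in L (log2, SD), so that the spread within groups exceeded it (limma adjusted p = 0.985). *TAT* had 0.47 and *ACADM* 0.17. Of 16 genes from glycolysis to acetyl-CoA 12 were measured, 4 above and 8 below 0, with a median of -0.09, among them *PFKL* at -0.29, *PDHA1* at -0.25 and *MPC2* at -0.12.

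After *TALDO1*, the listed genes with the highest r with *FASN* were *SDS*, *TAT*, *TM7SF2* and *MSMO1*. *SDS* had r = 0.641 and rho = 0.711 (permutation p = 0.0461 and 0.0249, adjusted p = 1.0 for both), and r = 0.631 without H2 and H3. *TAT*, tyrosine aminotransferase, had r = 0.633 and rho = 0.559 (permutation p = 0.0515 and 0.0958, adjusted p = 1.0 for both), and r = 0.393 without them. *TM7SF2* and *MSMO1*, of sterol synthesis, had r = 0.603 and 0.587, with rho = 0.444 and 0.711 (permutation p for r = 0.0649 and 0.0759, adjusted p = 1.0 for both), and r = 0.095 and 0.372 without H2 and H3. *SREBF2*, the regulator of sterol synthesis, had the highest r of the measured regulators, 0.317, and *ACSS2*, which makes acetyl-CoA from acetate, had 0.110. None of these relations passed the adjusted test.

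**Figure D4:**
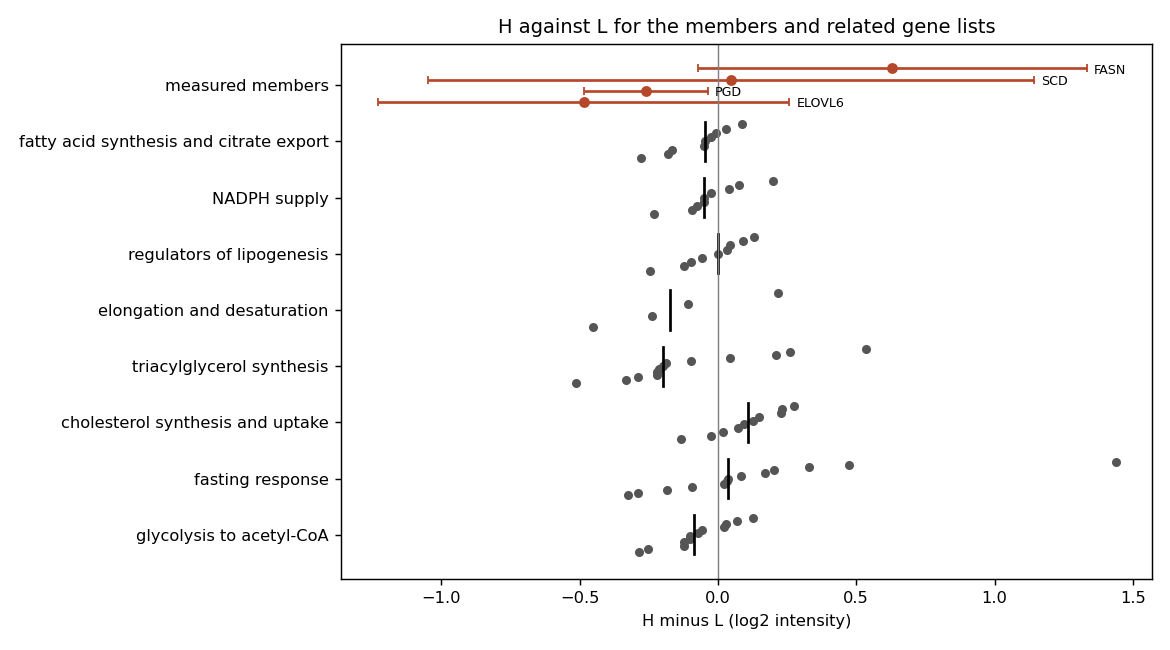
H minus L in log2 intensity for the 4 measured genes of the set (red-brown points, with limma's 95% interval) and for each measured gene of 8 related lists (grey points, with the list's median as a black line). The interval of FASN, SCD and ELOVL6 includes 0, that of PGD runs from -0.48 to -0.04 before adjustment, and no point passed the adjusted test.

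*ELOVL6* and *SCD* also had r of opposite signs with some single genes of the lists. *CPT1A*, which admits fatty acids to mitochondria for oxidation, and *GPAM*, which starts glycerolipid synthesis, were singled out after their values were seen. *CPT1A* read 10.81, 11.84, 12.09, 12.92 and 11.71 in H1 to H5 and 12.18, 11.48, 12.61, 12.69 and 11.85 in L1 to L5. H1 was the lowest and H4 the highest, and the groups overlapped, with a difference of -0.29 (limma adjusted p = 0.985).

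*GPAM* read 7.79, 6.36, 6.14, 5.48 and 7.44 in H1 to H5 and 6.37, 7.14, 5.98, 6.11 and 6.55 in L1 to L5. H1, H5 and L2 were the 3 highest animals, and the same animals were the 3 lowest for *ELOVL6*, while H4 was the lowest. The difference between the groups was 0.21 (limma adjusted p = 0.985).

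With *ELOVL6*, *CPT1A* had r = 0.875 and rho = 0.855 (permutation p = 0.00123 and 0.00321, adjusted p = 0.236 and 0.202), the 10th highest r of 4729 genes. *GPAM* had r = -0.861 and rho = -0.830 (permutation p = 0.00091 and 0.00460, adjusted p = 0.236 and 0.228), the 7th lowest. Without H1 and L4 these r were 0.708 and -0.885.

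With *SCD* the signs were the other way round. *SCD* and *ELOVL6* themselves had r = -0.615, so the relations with *SCD* are not independent of those with *ELOVL6*. *CPT1A* had r = -0.793 and rho = -0.818 (permutation p = 0.00548 and 0.0058, adjusted p = 0.566 and 0.712) and *GPAM* had r = 0.804 and rho = 0.685 (permutation p = 0.00617 and 0.0346, adjusted p = 0.578 and 0.725). Without H1 and L2 these r were -0.566 and 0.649. Of the 13 measured genes of triacylglycerol synthesis, *GPAM* was the lowest in r with *ELOVL6* and the highest in r with *SCD*. With *ELOVL6* 10 of the 13 were above 0, with a median of 0.26, beside 63.4% of all genes and a median of 0.16. With *SCD* 3 of the 13 were above 0, with a median of -0.22, beside 41.1% of all genes and a median of -0.09. *GPAM* thus ran against most of the list, which leaned the way all genes leaned. The difference of the list from all genes was not tested. None of the 4 relations passed the adjusted test, and with each group centred on its mean r was 0.878 and -0.886 with *ELOVL6* and -0.810 and 0.809 with *SCD*.

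*PLIN2*, a coat protein of lipid droplets, and *ANGPTL4*, an inhibitor of lipoprotein lipase, were chosen in the same way and also ran with *ELOVL6*, at r = 0.750 and 0.786 and rho = 0.794 and 0.891 (permutation p for r = 0.0103 and 0.0059, adjusted p = 0.293 and 0.263). Without H1 and L4 these r were 0.617 and 0.925. *PLIN2* ran against *SCD* at r = -0.726 and rho = -0.685 (permutation p = 0.0178 and 0.0338, adjusted p = 0.645 and 0.725), and at -0.379 without H1 and L2 together, -0.619 without H1 alone and -0.673 without L2 alone.

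**Figure D5:**
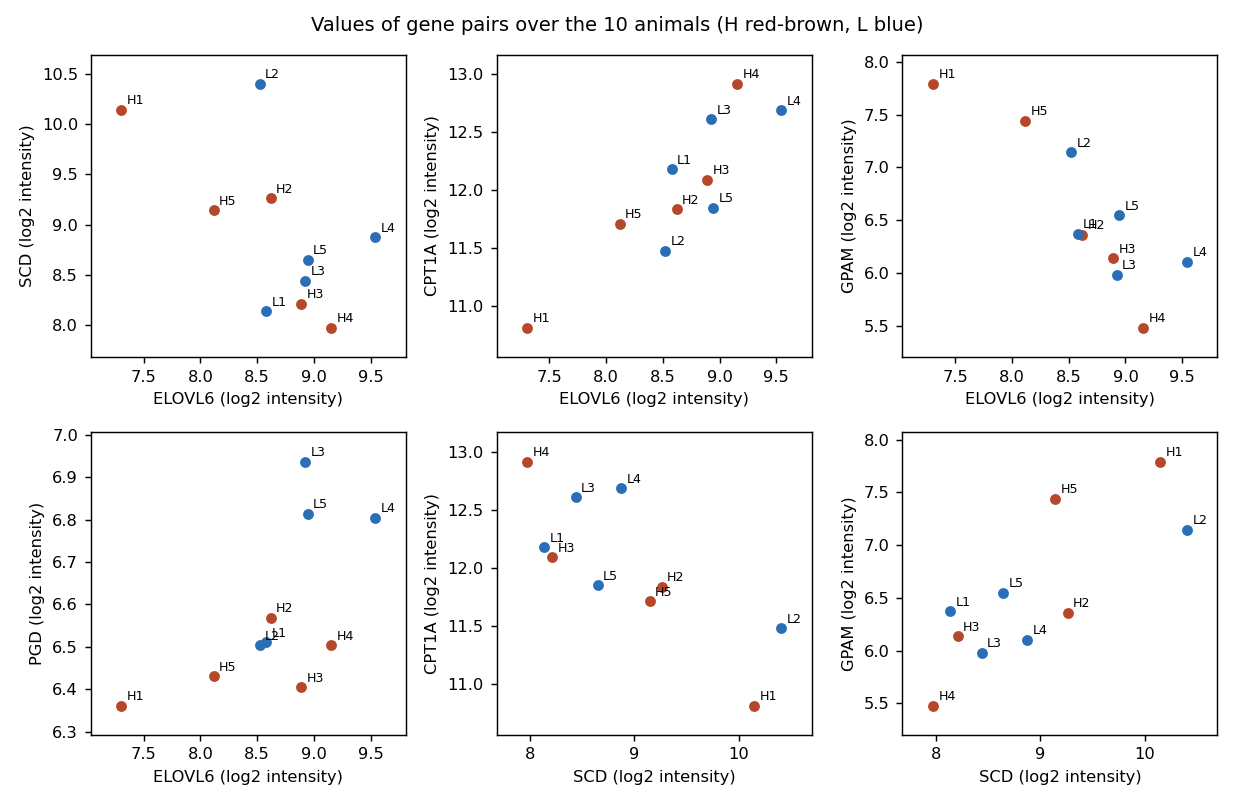
Log2 intensity of 6 pairs of genes in the 10 animals (H red-brown, L blue). CPT1A has r = 0.875 with ELOVL6 and -0.793 with SCD, GPAM has r = -0.861 with ELOVL6 and 0.804 with SCD, and H1, H4 and L2 mark the ends of most panels; no relation passed the test adjusted over 4729 genes.

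Over the lists as wholes, the median r was set beside that of all genes, and the differences between them were not tested. With *ELOVL6* it was 0.08 for fatty acid synthesis, 0.18 for NADPH supply, 0.26 for triacylglycerol synthesis and 0.36 for cholesterol synthesis, beside 0.16 over all genes. With *SCD* it was 0.23, 0.25, -0.22 and -0.37 in the same order, beside -0.09, and with *FASN* the cholesterol list had 0.25, beside -0.02. The sum of the hepatocyte markers ran with *ELOVL6* at r = 0.746 and rho = 0.515 (permutation p = 0.0156 and 0.133, adjusted over 36 relations p = 0.563 and 0.951), and at 0.101 without H1 and L4. The part of this sum in the relations of *ELOVL6* was not tested.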

How the data were processed

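Liver RNA of 5 H and 5 L females was hybridised to Affymetrix GeneChip Porcine arrays. Per the labels and the study's methods, the authors used GCOS to read the arrays and GCRMA to adjust and normalize them, and the submitters' processing notes also name RMA, each without a version. The deposited values are log2 intensities and were used as deposited. Of 24123 probe sets 124 controls were left out, and 10069 of the rest carried a single symbol, 198 several and 13732 none. Symbols came from the platform annotation, 9961 of them were matched by Entrez ID to a reference name table, and 0 changed.

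The H minus L difference was tested over 4730 genes by eBayes after lmFit (limma 3.58.1, R 4.3.3), two-sided and without covariates, adjusted by Benjamini-Hochberg and called at 0.05, and by an exact permutation test over all divisions of the animals for single genes. Correlations used Python 3.11.15 with numpy 2.4.6 and pandas 2.3.3, and figures matplotlib 3.10.9. The procedures were tested on simulated data. Dim genes were those whose probe sets all averaged under 4. The number of arrays limits the precision.

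The set, the lists, the tests and the alternatives were chosen with earlier results of these data known. The text names every gene of the set, in each list up to 3 genes with the smallest p, up to 4 genes of a list with the highest r with *FASN*, and the 5 genes nearest to each measured gene. Alternatives were other filters, scalings, priors, weights, probe set rules, a *GAPDH* covariate, the animal number as a block and leaving out animals. Other *ELOVL6* probe set choices and the alternatives for the spread were added after seeing the data. Sequences of these genes are not given, since the sources used here hold none.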

Additional observations from a re-analysis of the deposited data

Results flagged for a closer look

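In 42 groups of 5 animals, the gap between the outermost animal and the next was compared with the range of the group, and 2 exceeded the Dixon limit of 0.71, a limit that chance alone exceeds in about 5% of groups. H1 read 4.97 on the *ELOVL6* probe set Ssc.9392.1.S1_at, while the other H animals lay between 6.41 and 6.93 (gap over range 0.736). L1 read 11.05 for *TALDO1*, while the other L animals lay between 11.24 and 11.31 (gap over range 0.717).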

How the results depend on the processing

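Of 708 alternative values 679 kept their direction and their side of the threshold or, for counts, stayed within 1.5 times or, for values with no test, moved by less than 1 SD. Among the values given without a test, the difference of *ME1*, -0.02, ran from -0.13 without L4 to 0.09 without L3. That of *ME3*, -0.62, ran from -0.87 without L1 to -0.06 without L4, and these values were still counted among the 679. The limits were wide, so this count does not measure how stable the values are. The count of genes, probe sets and genes of the set past an adjusted p of 0.05 was 0 under every alternative run, leaving out each animal included. At an unadjusted p under 0.05 the count of genes, 125, ran from 90 without L4 to 281 without L2, and was 213 without H2, and the count of probe sets, 363, ran from 237 without L4 to 685 without L2, and was 617 without H2. Of the measured genes of the set the count, 1, was 0 with the replicate block and without H1, H3, L3, L4 or L5, and 2 without H5. The difference of *SCD* ran from -0.25 without H1 to 0.42 without L2 and was below 0 in 6 of these 10 fits. That of *FASN* ran from 0.42 to 0.87, that of *ELOVL6* from -0.67 to -0.21 and that of *PGD* from -0.31 to -0.20. *FASN* was not tested with a minimum mean of 6, and with no filter, which averages in its 3 probe sets near the lowest value, its difference was 0.15. The correlation of *FASN* and *ELOVL6* was 0.080 with groups centred and ran from -0.306 without H5 to 0.097 without H1. That of *FASN* and *PGD* was 0.339 with groups centred and 0.009 without the 2 animals farthest from the median, and that of *SCD* and *PGD* was 0.118 without them. The adjusted p of *ELOVL6* with *EFL1*, 0.0709, ran from 0.0236 with groups centred to 0.48 without the 2 animals farthest from the median. It was also 0.0473 after removing the *GAPDH* difference and without H3, L1 or L3, and was 0.331 without H1 and 0.345 with the *ELOVL6* probe set outside the cluster alone, where r was 0.793. The adjusted p of *PGD* with *CAP1*, 0.123, ran from 0.0347 after removing the *GAPDH* difference to 0.385 without L3. The cause was not tested for any of these changes. The replicate numbers of H and L animals gave no sign of pairing. The deviations of same-numbered animals correlated at -0.237 to 0.281 and those of different numbers at -0.318 to 0.401. Of 5 H animals 1 correlated best with its own number. These values cannot show whether same-numbered animals are sibs. With the replicate block 0 genes passed the adjusted test. Each number holds 1 H and 1 L animal, so the block cannot change the differences. They stayed at 0.63, 0.05, -0.49 and -0.26 for *FASN*, *SCD*, *ELOVL6* and *PGD*. The unadjusted limma p with the block was 0.0562, 0.921, 0.0612 and 0.0544 in the same order, beside 0.0739, 0.927, 0.177 and 0.0266 without it.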
